A study of Mus musculus with 4 samples.

Results

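The genes described are the Fc receptors of macrophages and their partners in signalling through the immunoreceptor tyrosine-based activation motif (ITAM). They were chosen by symbol as 10 named genes out of 14435 in the expression table. All 10 (Fcgr1, Fcgr2b, Fcgr3, Fcgr4, Fcer1g, Tyrobp, Trem2, Syk, Sirpa and Pirb) were found and all passed the filter on low counts. RNA was sequenced from RAW264.7, an established mouse macrophage line transformed with Abelson leukemia virus, in 2 libraries from cells transfected with an shRNA against Mettl3 (shMettl3) and 2 from cells transfected with a nonspecific shRNA (control). METTL3 is the methyltransferase that places N6-methyladenosine on messenger RNA. Cells of both groups had been treated with E. coli lipopolysaccharide (LPS) for 12 hours, so no untreated state was measured. One field of the labels of shMettl3 replicate 2 names METTL4, while its title names Mettl3. The labels name 1 shRNA target per group and do not say whether the 2 libraries of a group are separate cultures, so p-values measure the spread between these libraries, which may be technical.

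Fc receptors bind the constant part of antibodies. In mouse macrophages the activating receptors encoded by Fcgr1, Fcgr3 and Fcgr4 depend on the FcRγ chain, the product of Fcer1g, whose ITAM tyrosines are phosphorylated by Src family kinases and then dock the kinase Syk. Tyrobp encodes DAP12, the corresponding ITAM chain for TREM2 and other receptors, and these receptors share Syk. FcγRIIB, SIRPα and PIR-B, the products of Fcgr2b, Sirpa and Pirb, instead carry inhibitory motifs (ITIMs) that recruit phosphatases, and SIRPα restrains engulfment of cells that display CD47.

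Total estimated counts were 16342313 and 16767622 in the shMettl3 libraries and 17142599 and 17193639 in the controls. Mettl3 itself had 194 and 195 estimated counts in shMettl3 and 514 and 496 in the controls, a log2 fold change of -1.42 (SE 0.10). Of 10 macrophage markers 9 were tested, 7 fell and 1 (Ptprc) rose, and their summed level in CPM (counts scaled to library size by TMM factors) was 8732 to 8786 in shMettl3 and 13417 to 13749 in the controls. Most of this sum was Lyz2 and Cd14, at means of 3205 and 2875 CPM in shMettl3 and 5868 and 4015 CPM in the controls. Spi1 was not called (log2 fold change -0.06), and in both groups the macrophage marker Mertk was near 0. Defining markers of T cells and of mast cells (Cd3e, Fcer1a, Kit) have no row among those analysed here. The summed lists came to 5.23 to 7.26 CPM in shMettl3 and 6.03 to 6.56 CPM in the controls for T and NK cells, and to 5.75 to 6.54 CPM and 5.72 to 6.03 CPM for neutrophils. Of 5 dendritic cell markers 3 had a row, and these summed to 6.44 to 7.50 CPM in shMettl3 and 24.6 to 32.2 CPM in the controls, most of it Itgax. The fibroblast list summed to 0.345 to 3.03 CPM in shMettl3 and 0 to 0.0603 CPM in the controls, and in shMettl3 replicate 1 Col1a1, Col1a2 and Col3a1 had 17, 15 and 15 counts, against 1, 0 and 0 in shMettl3 replicate 2 and 0 in both controls. The B cell list summed to 0.517 to 0.833 CPM in shMettl3 and to at least 0.603 CPM in the controls. The cells were the RAW264.7 line in every library, and bulk RNA does not show whether a marker differed in all of them or in a part.

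The ITAM chains stood far above the other genes in level. Levels are compared between genes in TPM, the relative abundance of transcripts after division by length. Fcer1g averaged 1898 ± 59.1 TPM in shMettl3 and 1245 ± 61.2 TPM in the controls (SD, n = 2 each). Tyrobp averaged 1449 ± 92.6 TPM in shMettl3 and 1812 ± 23.7 TPM in the controls. The order of these 2 genes therefore differed between the groups, with Fcer1g first in both shMettl3 libraries and Tyrobp first in both controls. The ranges of the 2 genes did not meet within either group. Trem2 and Sirpa followed, at 187 ± 8.78 and 184 ± 13.8 TPM in shMettl3 and 251 ± 20.5 and 237 ± 11.4 TPM in the controls, and the ranges of Trem2 and Sirpa overlapped in both groups. Fcgr2b was the fifth gene in both groups, at 166 ± 3.88 TPM in shMettl3 and 106 ± 18.2 TPM in the controls. Below it in shMettl3 stood Fcgr4 (94.3 ± 12.5 TPM), Fcgr1 (78.4 ± 11.3 TPM) and Fcgr3 (71.0 ± 2.84 TPM), neighbours whose ranges overlapped, and then Syk (54.4 ± 1.24 TPM). In the controls Syk (67.4 ± 10.9 TPM), Fcgr4 (60.7 ± 9.81 TPM) and Fcgr3 (56.6 ± 7.40 TPM) overlapped as neighbours and Fcgr1 stood below them (40.2 ± 13.8 TPM). Pirb was the lowest of the 10 in both groups, at 18.0 ± 0.21 TPM in shMettl3 and 17.2 ± 1.31 TPM in the controls.

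**Figure D1:**
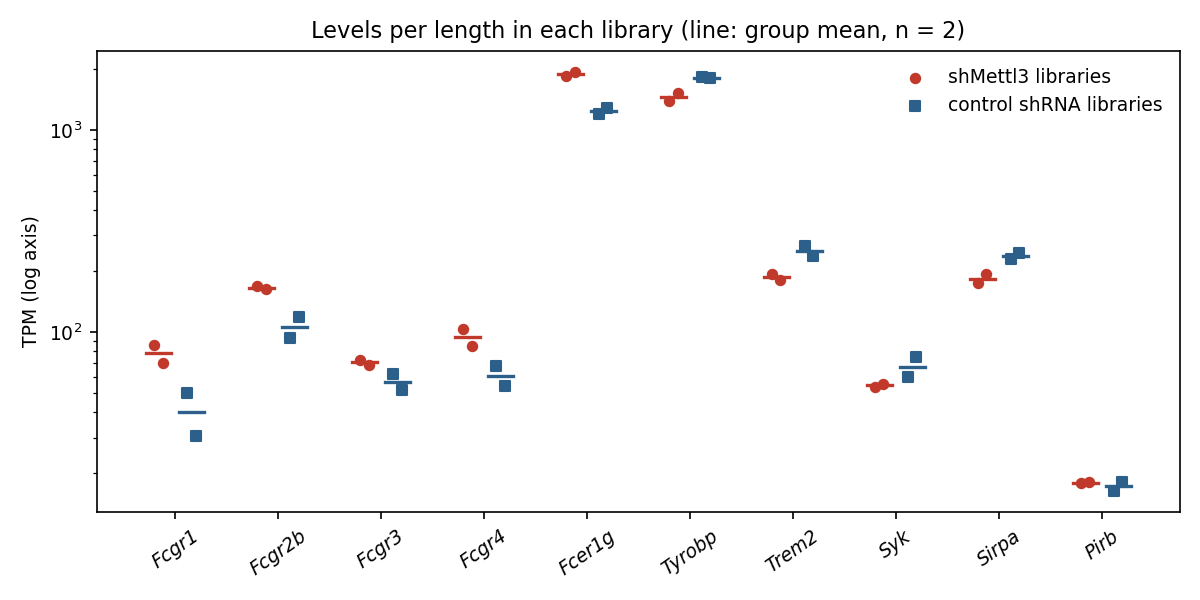
TPM of each gene (log axis) in the 2 shMettl3 libraries (red circles) and the 2 control libraries (blue squares), with the group mean as a line. Fcer1g is higher and Tyrobp lower in shMettl3, so that their order turns round, and for Pirb the groups overlap.

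Promoters are shown for 4 of the genes, because they include members that moved in opposite directions (Fcer1g and Fcgr4 up, Trem2 down) and the member with the widest spread (Fcgr1). Each window runs from 250 bases before to 50 bases after an annotated start in RefSeq on GRCm38.p6, a later build than the mm9 of the submitters' processing notes, and is printed 5′ to 3′ on the strand of the gene. Windows were on hand for 8 of the 10 genes, and those of Tyrobp and Sirpa were not analysed here. Capitals mark matches, on either strand, to GAGGAA (its reverse complement is TTCCTC), the core of sites bound by the myeloid factor PU.1, and to GAAA repeated after a gap of any 2 bases, the core of interferon-stimulated response elements. The window of Fcer1g is chr1:171234300-171234599 (minus strand), that of Fcgr4 chr1:171018676-171018975 (plus strand), that of Fcgr1 chr3:96293920-96294219 (minus strand) and that of Trem2 chr17:48346151-48346450 (plus strand).
Fcer1g: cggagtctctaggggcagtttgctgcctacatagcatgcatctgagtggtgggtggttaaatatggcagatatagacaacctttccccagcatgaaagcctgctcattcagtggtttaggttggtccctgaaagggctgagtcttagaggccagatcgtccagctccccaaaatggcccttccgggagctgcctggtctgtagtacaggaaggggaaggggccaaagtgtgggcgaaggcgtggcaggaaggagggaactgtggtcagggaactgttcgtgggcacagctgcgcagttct
Fcgr4: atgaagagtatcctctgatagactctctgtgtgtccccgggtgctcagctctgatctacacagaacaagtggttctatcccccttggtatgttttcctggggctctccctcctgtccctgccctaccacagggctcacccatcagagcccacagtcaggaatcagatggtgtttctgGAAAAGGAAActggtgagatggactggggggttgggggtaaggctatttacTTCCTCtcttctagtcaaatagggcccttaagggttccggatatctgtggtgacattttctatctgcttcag
Fcgr1: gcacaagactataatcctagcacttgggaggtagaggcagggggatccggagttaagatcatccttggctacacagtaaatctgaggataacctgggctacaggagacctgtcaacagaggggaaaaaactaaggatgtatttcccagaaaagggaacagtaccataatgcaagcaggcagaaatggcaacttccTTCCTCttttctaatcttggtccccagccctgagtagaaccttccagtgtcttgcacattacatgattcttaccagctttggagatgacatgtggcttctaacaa
Trem2: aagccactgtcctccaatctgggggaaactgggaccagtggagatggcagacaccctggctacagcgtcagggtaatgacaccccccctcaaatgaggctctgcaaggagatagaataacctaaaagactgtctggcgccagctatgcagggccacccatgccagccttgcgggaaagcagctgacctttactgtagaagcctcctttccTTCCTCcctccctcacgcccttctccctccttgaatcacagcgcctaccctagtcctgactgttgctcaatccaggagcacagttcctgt
GAGGAA was found in windows of 6 of the 8 genes (Fcgr1, Fcgr3, Fcgr4, Pirb, Syk and Trem2), among them genes that rose, genes that fell and genes that were not called. Counted by window it was found in 7 of the 10, and in 28.3% of the 32851 mouse promoter windows. The windows of Fcgr3 overlap each other, so they are not separate cases. The repeated GAAA was found in the window of Fcgr4 alone among the 8, overlapping no other match, and in 3.44% of all windows. The window of Fcer1g, like that of Fcgr2b, held neither motif. These matches describe letters in the windows, and binding was not measured.

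The comparison asks which of these genes differ between shMettl3 and control cells under LPS. Of the 10 genes 3 rose and 4 fell in the quasi-likelihood test of edgeR (Benjamini-Hochberg p under 0.05, adjusted over 11035 tested genes). That is 70% called, where 43.7% of all tested genes were. By direction, 30% of the members rose, against 21.4% of all tested genes, and 40% fell, against 22.3%. The median log2 fold change (shMettl3 over control) was 0.06 over the 10 genes and 0.01 over all tested genes. The sizes were moderate, between 0.43 and 0.55 on the log2 scale among the 7 called genes, and 9 of the 10 had groups that did not overlap, as did 73.4% of all tested genes. Leaving out shMettl3 replicate 1 brought the calls over the whole table to 1503 that rose and 1592 that fell, against 2360 and 2466 with all libraries. The scaling also shifts the balance, since 48.9% of calls rose with TMM factors, 64.1% with library size alone, 63.1% with FPKM and 70% with TPM, and the median of all genes moved to 0.11, 0.08 and 0.14. Each called member kept its direction under all of these.

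Among the activating Fc receptors, Fcgr4 rose and the other 2 were not called. Fcgr4, which encodes the receptor for IgG2a and IgG2b, had 68.7 and 56.2 CPM in shMettl3 and 48.3 and 39.6 CPM in the controls. Both shMettl3 libraries were above both controls, with a log2 fold change of 0.50 (SE 0.13, adjusted p = 0.0161). This value ran from 0.36 to 0.64 over all alternatives, both ends with 1 library left out. Fcgr1, which encodes the high-affinity receptor for IgG, had 126 and 103 CPM in shMettl3 and 79.4 and 49.9 CPM in the controls. The groups did not overlap, but the controls lay 0.67 apart on the log2 scale, the widest gap of any member. Fcgr1 was not called in the main fit (adjusted p = 0.151). With all 4 libraries it was called by edgeR without robust fitting and with the replicate number as a block. Its log2 fold change in the main fit was 0.83 (95% interval -0.24 to 1.89), the largest of the 10. It was 1.19 without control replicate 1 (adjusted p = 0.00166) and 0.53 without control replicate 2 (adjusted p = 0.0284), fits in which the spread comes from the shMettl3 libraries alone. Adjusted p-values for Fcgr1 ran from 8.00e-05 to 0.473 over all alternatives. Fcgr3, the low-affinity activating receptor, had 53.8 and 50.3 CPM in shMettl3 and 48.9 and 42.0 CPM in the controls, a log2 fold change of 0.20 (95% interval 0.00 to 0.39, adjusted p = 0.0948). Fcgr3 was called without control replicate 1 (0.30, adjusted p = 0.00812), with library size alone and with FPKM or TPM. Without control replicate 2 its log2 fold change was 0.09 (adjusted p = 0.431).

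The inhibitory receptor gene Fcgr2b rose as well. It had 130 and 125 CPM in shMettl3 and 77.2 and 102 CPM in the controls, so the shMettl3 libraries stood close together above a wider pair of controls. The log2 fold change was 0.51 (SE 0.13, adjusted p = 0.0182). It was 0.31 without control replicate 1, and the call was lost without shMettl3 replicate 1 (adjusted p = 0.0571). It was lost too after a correction for GC content (0.44, adjusted p = 0.067). Fcgr2b and Fcgr3 encode receptors with closely similar outer parts, and both had estimated counts that were not whole in all 4 libraries, so each is uncertain against the other. With the 2 genes summed, a step added after seeing the data, the counts were 3091 and 3053 in shMettl3 and 2095 and 2391 in the controls. The log2 fold change of the sum was 0.41 (SE 0.08, adjusted p = 0.00174).

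The balance between activating and inhibitory receptors was compared as the ratio of TPM within each library. Fcgr1 over Fcgr2b was 0.513 and 0.433 in shMettl3 and 0.536 and 0.256 in the controls. Fcgr4 over Fcgr2b was 0.613 and 0.525 in shMettl3 and 0.726 and 0.452 in the controls. For both ratios the shMettl3 libraries lay between the controls. Fcgr3 over Fcgr2b was 0.434 and 0.424 in shMettl3 and 0.664 and 0.432 in the controls, where control replicate 2 lay between the shMettl3 libraries. The smallest p that an exact two-sided permutation test of 2 against 2 libraries allows is 0.333, so these ratios could not be tested at the 0.05 level, and they are given as values. Without control replicate 2 the log2 difference of the Fcgr1 ratio was -0.19, against 0.35 with all libraries, and that of the Fcgr4 ratio, -0.02 with all libraries, was 0.33 without control replicate 1 and 0.10 without shMettl3 replicate 2. In all 3 ratios the ranges of the groups overlapped. Each ratio also carries the uncertainty between Fcgr2b and Fcgr3 given above, which enters both parts of the Fcgr3 ratio.

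**Figure D2:**
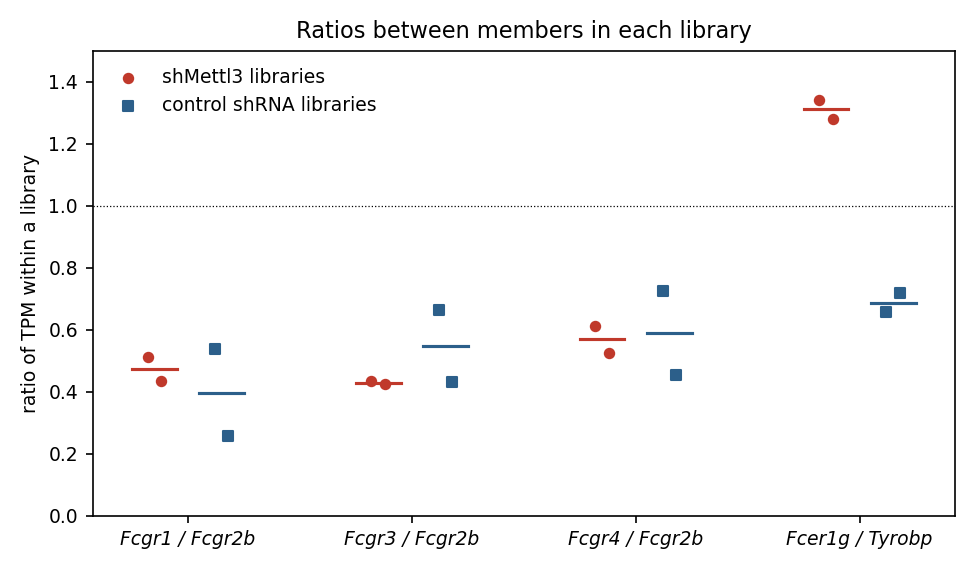
Ratio of TPM between pairs of genes within each library, with shMettl3 libraries as red circles, control libraries as blue squares and the group mean as a line. The 3 ratios to Fcgr2b spread most widely between the controls, while the ratio of Fcer1g to Tyrobp is above 1 in both shMettl3 libraries and below 1 in both controls.

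The 2 ITAM chains moved in opposite directions. Fcer1g had 581 and 585 CPM in shMettl3 and 393 and 436 CPM in the controls. It rose 1.41-fold (log2 fold change 0.49, SE 0.07, adjusted p = 3.40e-04), and its log2 fold change stayed between 0.41 and 0.61 over all 16 alternatives, with the call in each. Tyrobp had 360 and 376 CPM in shMettl3 and 492 and 500 CPM in the controls, and its control libraries differed by only 0.02 on the log2 scale. It fell by 0.43 on that scale (SE 0.07, adjusted p = 5.07e-04), staying between -0.46 and -0.32 and called in each alternative. Within a library, Fcer1g over Tyrobp in TPM was 1.34 and 1.28 in shMettl3 and 0.657 and 0.718 in the controls. This ratio was chosen after its values were seen and is given without a test.

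Trem2 and Sirpa, receptors of the myeloid surface, fell together with Tyrobp. Trem2, which encodes a lipid and lipoprotein receptor that needs DAP12, had 112 and 103 CPM in shMettl3 and 164 and 151 CPM in the controls. The groups did not overlap, and it fell by 0.55 on the log2 scale (SE 0.08, adjusted p = 1.79e-04), the largest fall of the 10. Sirpa had 389 and 434 CPM in shMettl3 and 556 and 612 CPM in the controls, a log2 fold change of -0.51 (SE 0.08, adjusted p = 4.90e-04). Both genes were called in every alternative run, Trem2 between -0.61 and -0.42 and Sirpa between -0.59 and -0.37. The sum of the macrophage markers given above was also lower in shMettl3, and its part in these falls was not tested.

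Syk, the kinase that both ITAM chains dock, had 157 and 163 CPM in shMettl3 and 191 and 249 CPM in the controls. It fell by 0.45 on the log2 scale (SE 0.12, adjusted p = 0.0207), with a control gap of 0.38 that makes its size uncertain. Leaving out control replicate 1 gave a log2 fold change of -0.65, and leaving out control replicate 2 gave -0.26. The call was lost without shMettl3 replicate 1 (adjusted p = 0.068) and with FPKM or TPM (adjusted p between 0.051 and 0.0605). Pirb, an inhibitory receptor gene of the paired immunoglobulin-like family that binds MHC class I, had 27.6 and 28.0 CPM in shMettl3 and 27.3 and 31.5 CPM in the controls. It was the only member whose groups overlapped, and its log2 fold change of -0.08 (95% interval -0.29 to 0.13, adjusted p = 0.54) changed sign with library size alone, with FPKM or TPM and without control replicate 2. Counts of Pirb were not whole in all 4 libraries, and its value is uncertain between related genes.

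**Figure D3:**
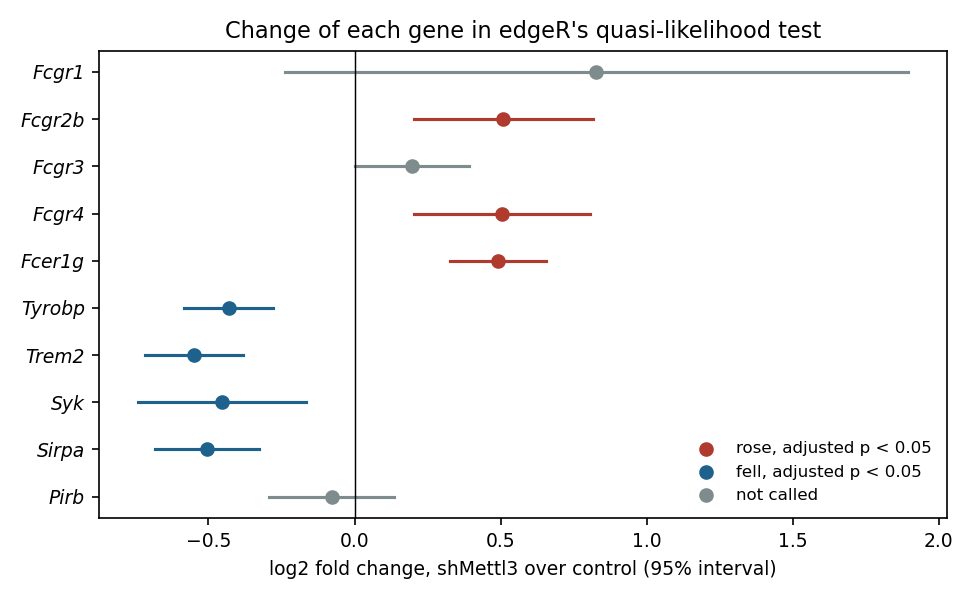
Log2 fold change of each gene, shMettl3 over control, with its 95% interval from edgeR's quasi-likelihood fit. Fcgr2b, Fcgr4 and Fcer1g lie above 0 and Tyrobp, Trem2, Syk and Sirpa below it, while Fcgr1 has the widest interval and is not called.

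The spread between replicates was uneven across these genes. The 2 controls differed by a median of 0.21 on the log2 scale over the 10 genes, and the 2 shMettl3 libraries by 0.08. The wider spread of the controls was not particular to these genes. Over the whole table, the chi-square per degree of freedom between the counts of a pair was 11.5 for the controls and 4.15 for shMettl3. Control replicate 2 had the lower CPM of the pair for Fcgr1, Fcgr3, Fcgr4 and Trem2 and the higher for the other 6, among them Fcgr2b and Syk. The estimated counts behind the members ran from 454 to 10179 per library.

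Other receptors that signal through FcRγ, DAP12 or a hemITAM fell more often than they rose. Their list of 27 genes, below called other ITAM-coupled receptors, includes the adaptor gene Hcst, which fell. Of these genes 20 were tested, 12 fell (60%, against 22.3% of all tested genes) and 2 rose (10%, against 21.4%). The median log2 fold change was -0.68. Among the falls, Pilrb1, Pilrb2, Sirpb1a, Cd300c2 and Hcst had adjusted p between 0.0361 and 0.0473 in edgeR's test. All of these but Cd300c2 averaged under 5 CPM in both groups. In DESeq2 8 of the list fell, where 1870 of 11035 genes did. With a filter at a mean CPM of 5, 8 fell too, where 2106 of 9279 genes did. With library size alone 7 fell and 4 rose, where 1832 of all 11035 tested genes fell and 3266 rose. With FPKM or TPM 4 rose as well, where 3002 and 3536 of all tested genes rose at a pseudocount of 1. Ranges with 1 library left out are given in the last section. The largest falls were in Clec4n, which encodes the FcRγ-coupled fungal receptor Dectin-2, at -2.99 (SE 0.38), Cd300ld at -1.43 (SE 0.07) and Clec7a, which encodes the hemITAM receptor Dectin-1, at -1.41 (SE 0.16). Clec4n had 2.08 and 1.67 CPM in shMettl3 and 10.8 and 18.9 CPM in the controls. The 2 genes that rose were Pira2 (1.37, SE 0.13) and Pira1 (0.79, SE 0.16), activating relatives of Pirb that use FcRγ. Pira2 had 13.4 and 13.7 CPM in shMettl3 and 5.12 and 5.42 CPM in the controls. Counts of Pira1, Pira2 and Cd300ld were not whole in any library, so they are uncertain between relatives. Those of Pilrb1, Pilrb2 and Sirpb1a were not whole in at least 1 library. Clec4e, which encodes the FcRγ-coupled receptor Mincle and was chosen after its values were seen, had 2059 and 2063 CPM in shMettl3 and 2070 and 2098 CPM in the controls. Its difference of -0.02 on the log2 scale (SE 0.06) was not called.

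Other Fc receptors were few in these cells. Of 13 listed genes 7 were in the table and 4 were tested, with 1 that rose (25%, against 21.4% of all tested genes) and 1 that fell (25%, against 22.3%). Trim21, the cytosolic antibody receptor and ubiquitin ligase, had 57.6 and 47.0 CPM in shMettl3 and 29.8 and 20.5 CPM in the controls. It rose by a log2 fold change of 1.06 (SE 0.22, adjusted p = 0.02), a call that was lost with no filter on low counts (adjusted p = 0.0629). Fcrl1, an Fc receptor-like gene best known from B cells, had 35.6 and 40.8 CPM in shMettl3 and 59.6 and 60.3 CPM in the controls, a log2 fold change of -0.65 (SE 0.08, adjusted p = 1.13e-04). The median of the 4 was -0.50.

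Inhibitory receptors with ITIMs and the phosphatases they recruit also fell more often than they rose. Their list includes the adaptor genes Dok1 and Dok2, which fell, and Dok3, which was not called. Of 26 listed genes 19 were tested, 12 fell (63.2%, against 22.3% of all tested genes) and 1 rose (5.26%, against 21.4%), with a median of -0.27. Those that fell numbered 7 with FPKM or TPM, where 1756 and 1516 of all 11035 tested genes fell at a pseudocount of 1. With those units and with library size alone 3 rose, where 3002, 3536 and 3266 of all tested genes did. Clec4a2, which encodes the lectin DCIR, had 13.1 and 16.4 CPM in shMettl3 and 83.9 and 77.3 CPM in the controls, a log2 fold change of -2.44 (SE 0.11). Cd300a (-1.39, SE 0.08) and Clec12a (-0.79, SE 0.07), both ITIM receptors, fell too. Milr1, which encodes the ITIM receptor Allergin, rose (0.34, SE 0.08). The phosphatase genes Ptpn6 (-0.65, SE 0.09), which encodes SHP-1, and Inpp5d (-0.61, SE 0.07), which encodes SHIP1, fell. Both were chosen after their values were seen. Summed macrophage markers were 8732 to 8786 CPM in shMettl3 and 13417 to 13749 CPM in the controls, and their part in the falls of these receptor lists was not tested.

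Src family kinases, which phosphorylate ITAMs and ITIMs, included genes that fell and genes that rose. Of 12 tested genes in the list of these kinases and their regulators, 5 fell (41.7%, against 22.3% of all tested genes) and 3 rose (25%, near the 21.4% of all tested genes), with a median of 0.01. Fgr had 45.2 and 44.1 CPM in shMettl3 and 211 and 214 CPM in the controls, a log2 fold change of -2.25 (SE 0.07, adjusted p = 1.25e-08). Src had 62.3 and 50.9 CPM in shMettl3 and 163 and 171 CPM in the controls (-1.56, SE 0.09). Both falls were larger in size than any change among the 10 members, and each was called in all 16 alternatives. Fyn rose, with 44.6 and 47.6 CPM in shMettl3 and 28.3 and 26.7 CPM in the controls (0.74, SE 0.08). Lyn, the highest of the family in TPM in every library, had 511 and 470 CPM in shMettl3 and 491 and 450 CPM in the controls (0.06, SE 0.08) and was not called. The phosphatase genes Ptprc (CD45, 0.57, SE 0.08) and Ptprj (CD148, 0.30, SE 0.07), whose products remove the inhibitory phosphate from these kinases, rose. The call on Ptprj was lost without either shMettl3 library (adjusted p = 0.0778 and 0.0612), leaving 2 that rose in each of these fits. Csk, whose product adds that phosphate, had 209 and 198 CPM in shMettl3 and 188 and 191 CPM in the controls (0.10, SE 0.07) and was not called. Lyn and Csk were chosen after their values were seen.

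**Figure D4:**
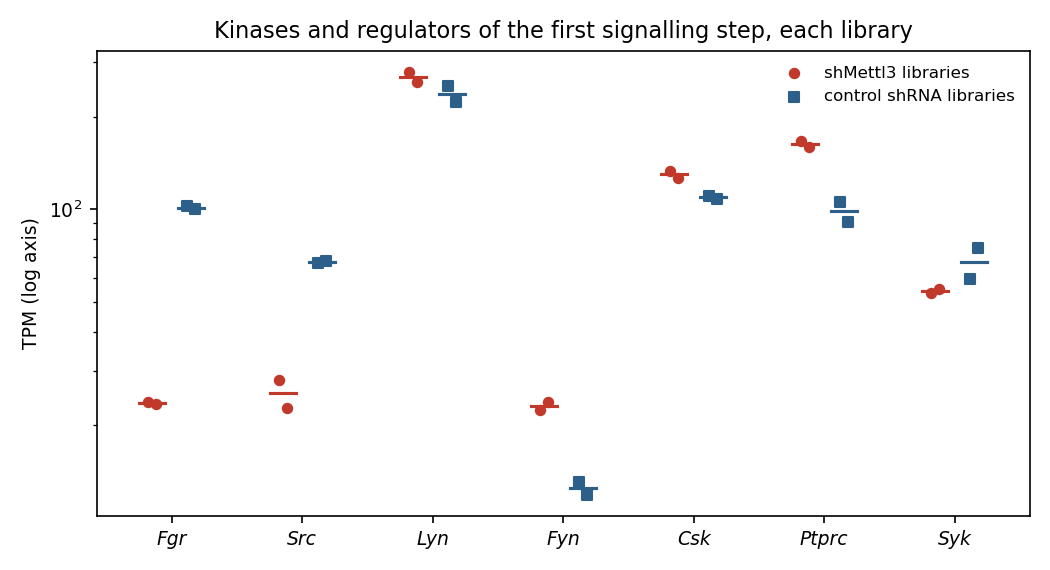
TPM (log axis) of Src family kinases, the regulators Csk and Ptprc, and Syk in the 2 shMettl3 libraries (red circles) and the 2 control libraries (blue squares), with the group mean as a line. Fgr and Src are lower in both shMettl3 libraries and Fyn and Ptprc higher, while the Lyn libraries lie within a narrow range.

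Genes that act after Syk fell more often than they rose. Of 36 tested adaptors and effectors 15 fell (41.7%, against 22.3% of all tested genes), 3 rose (8.33%, against 21.4%) and 18 were not called, with a median of -0.17. The 50% called in either direction is near the 43.7% of all tested genes. Nfatc1, a calcium-regulated transcription factor, had 29.2 and 29.1 CPM in shMettl3 and 56.3 and 60.1 CPM in the controls (-0.998, SE 0.08). The adaptor gene Blnk (-0.86, SE 0.07) and Pik3cd (-0.77, SE 0.07), which encodes a catalytic subunit of phosphoinositide 3-kinase, also fell. The genes that rose were Lat (1.42, SE 0.35), an adaptor at 1.43 and 1.49 CPM in shMettl3 and 0.542 and 0.542 CPM in the controls, Bcl10 (0.35, SE 0.08) and Sos1 (0.24, SE 0.09). None of these 3 rises was called without shMettl3 replicate 1, and the number that rose was 1 without shMettl3 replicate 2, 2 without control replicate 2 and 1 in DESeq2.

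Among ligands and proteases of TREM2 and the ligand of SIRPα, 4 of 10 tested genes rose (40%, against 21.4% of all tested genes) and 2 fell (20%, near the 22.3% of all tested genes), with a median of 0.11. Cd47, which encodes the ligand of SIRPα, had 164 and 151 CPM in shMettl3 and 98.3 and 90.5 CPM in the controls. It rose by a log2 fold change of 0.74 (SE 0.08, adjusted p = 2.28e-05) and was called in all 16 alternatives, where Sirpa fell in each. Apoe, a ligand of TREM2, rose at a low level, with 6.43 and 6.03 CPM in shMettl3 and 3.13 and 3.92 CPM in the controls (0.82, SE 0.19). The γ-secretase subunit genes moved apart, with Ncstn up (0.34, SE 0.07, not called without shMettl3 replicate 1) and Aph1a down (-0.65, SE 0.07). Adam10, which encodes a protease that sheds TREM2, fell (-0.28, SE 0.08), a call lost without either shMettl3 library, with library size alone and with FPKM or TPM, leaving 1 that fell in each. It was -0.18 without control replicate 1. Without shMettl3 replicate 1 the number that rose was 2.

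**Figure D5:**
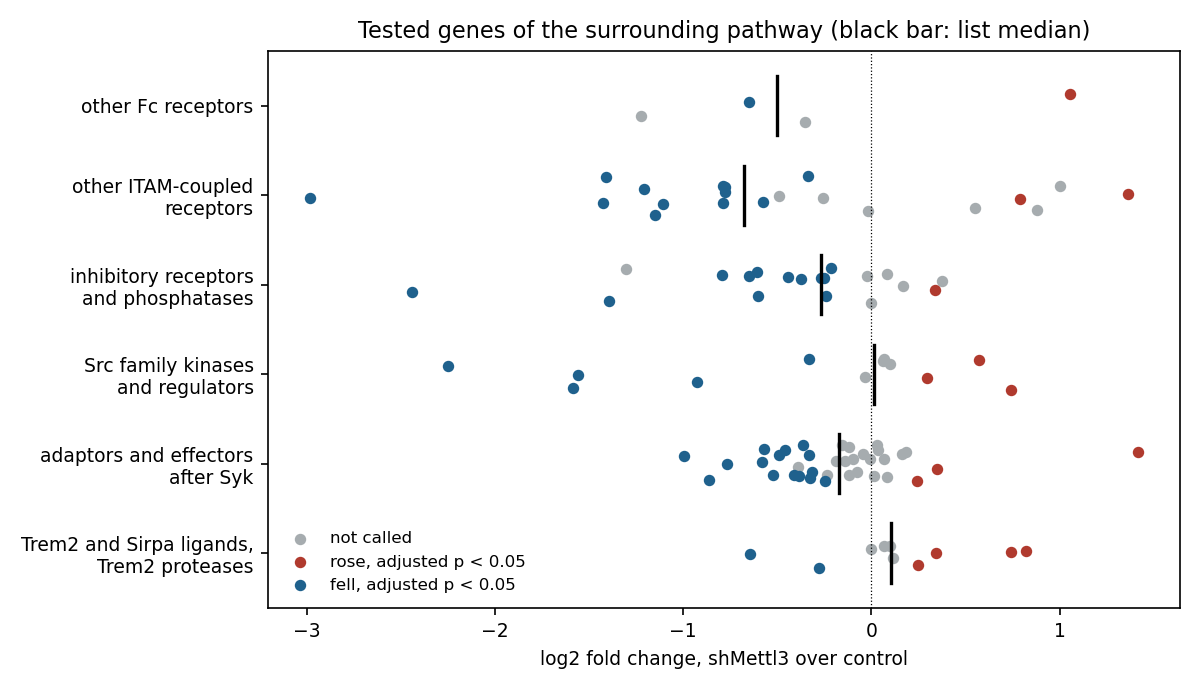
Log2 fold change, shMettl3 over control, of the tested genes in 6 lists around the Fc receptors, each point a gene, with genes that rose in red, genes that fell in blue, genes not called in grey and the list median as a black bar. The medians of the other ITAM-coupled receptors (-0.68) and of the inhibitory receptors and phosphatases (-0.27) lie below 0, and the Src family list holds both large falls and rises.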

How the data were processed

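RNA was measured in 4 libraries, grouped by their titles. Full-length cDNA from poly(A) RNA, made by template switching and PCR, was read single-end on a BGISEQ500, per the labels' protocols, which mention neither strand nor molecular identifiers. RSEM 1.2.12, Bowtie2 2.2.5, HISAT2 2.0.4 and build mm9 are named in the submitters' processing notes without their roles. The authors deposited estimated counts, FPKM and TPM per gene and library. Estimated counts were not whole for 1808 of 14435 genes.

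Counts were rounded, filtered with filterByExpr (minimum count 10, minimum total 15, leaving 11035 genes), scaled by TMM and tested with edgeR 4.0.16 (R 4.3.3, robust quasi-likelihood fit, Benjamini-Hochberg). Standard errors (SE) were taken as the size of the fold change on the log2 scale divided by the root of its F statistic. FPKM and TPM were tested with limma 3.58.1 on log2 values with pseudocounts of 1 or 0.1, and DESeq2 1.42.0, limma-voom, other filters, a GC correction and leaving out each library were further alternatives. The fits were also run on simulated data in which few genes changed, in both directions. Those runs could not test the scaling where many genes differ.

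The members and lists were chosen with earlier results of these data known. Named list genes are, in each list and direction, the 3 called genes with the widest change whose groups did not overlap. Some items are not reported here.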

Additional observations from a re-analysis of the deposited data

How the results depend on the processing

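All values rest on 2 libraries a group, which leave 2 residual degrees of freedom. The p-values and intervals of edgeR also use degrees of freedom borrowed across genes, in an amount that differs between genes. Over the 17 alternatives the number of members that rose was 2 to 5 and the number that fell 3 or 4. Fcgr4, Fcer1g, Tyrobp, Trem2 and Sirpa kept call and direction in all 16 alternatives run on single genes, Fcgr2b in 14 and Syk in 11, and Fcgr1, which was not called, was called in 4. The cause of these differences was not tested.

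Leaving out 1 library gave 1503 to 2543 genes that rose and 1592 to 2781 that fell over the whole table. It gave 2 to 5 and 3 to 4 among the members, 2 to 4 and 7 to 10 among other ITAM-coupled receptors, and 1 to 2 and 6 to 13 among inhibitory receptors and phosphatases. It gave 2 to 3 and 4 to 5 for the Src family list, 0 to 4 and 11 to 16 after Syk, and 2 to 4 and 1 to 2 for the TREM2 and SIRPα list. The log2 differences of the ratios to Fcgr2b ran from -0.19 to 0.88 for Fcgr1, -0.63 to -0.01 for Fcgr3 and -0.36 to 0.33 for Fcgr4.

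With library size alone 3266 of the 11035 tested genes rose and 1832 fell over the whole table. The other ITAM-coupled receptors then had 4 that rose and 7 that fell. In the same fit 3 inhibitory genes and 5 genes after Syk rose, and 1 gene of the TREM2 and SIRPα list fell. With FPKM or TPM, at either pseudocount, 2 other Fc receptors fell, 4 other ITAM-coupled receptors rose, 3 inhibitory genes rose and 7 fell, and 1 gene of the TREM2 and SIRPα list fell. With TPM 1516 genes of the whole table fell with a pseudocount of 1 and 1509 with 0.1, and 5 genes of the Src family list and 6 after Syk rose. Limma-voom and edgeR without robust fitting each called 2 other Fc receptors as fallen, and no filter on low counts left 0 that rose. DESeq2 left 1 rise after Syk and 1605 over the whole table.

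The titles number the libraries 1 and 2 in both groups, but no label says that a number is a shared culture or day, and deviations of same-numbered libraries correlated at 0.146 across genes. With the replicate number as a block, 2548 genes rose and 2568 fell over the whole table and 4 members rose and 4 fell. The added member was Fcgr1 (0.85, adjusted p = 8.00e-05), and Sos1 lost its call (adjusted p = 0.0501).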
